A study of Bos taurus with 40 samples.

Results

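Cattle genes that carry a name such as C5H12orf57 were followed through the follicle, from the granulosa cells of its wall to the cytoplasm of its oocyte. They were chosen by name alone: every row named C, a number, H, a number, orf and a number was taken, apart from 1 row that the rule sets aside. This gave 87 genes among the 59051 rows of each count table. A further 7 rows with X in place of a number fell outside the rule and were not used.

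A name of this kind is a placeholder. The number after C is the cattle chromosome, the number after H is the chromosome of the human counterpart, and the last part is the label that the human gene received as an open reading frame without a known product. Many have since been given a function in human or mouse, so the group mixes parts of cilia, meiotic recombination factors, mitochondrial proteins and ribosome assembly factors with genes about which little is known. In a RefSeq gene table of the assembly ARS-UCD2.0, 60 of the 87 were found by name, and 35 of these now carry another symbol.

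A follicle holds 3 kinds of cell sampled here for RNA. Granulosa cells line the follicle and make steroid hormones, cumulus cells surround the oocyte and feed it through junctions, and the oocyte stores transcripts for the embryo before its own genome is active. Granulosa cells were collected follicle by follicle, the oocytes were matured in vitro, and a sample of cytoplasm, called here an ooplasm biopsy, was drawn from each. Fate was then recorded as development to the blastocyst or arrest at cleavage.

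There were 4 libraries in each of 8 groups: granulosa cells, cumulus cells and biopsies of the blastocyst group and of the cleavage group, and a further set of biopsies with the matching whole oocytes, for which no fate is given. All samples carry the genotype label Diploid, no treatment is named, and the age and breed of the cows are not stated in the labels. Granulosa and biopsy libraries of 1 follicle share a label (B20, B21, D24 and D27 for blastocyst, B14, B23, D10 and D29 for cleavage), and biopsy and oocyte of a matched pair share a number. A library from a drop of cytoplasm holds only what the pipette took, and no source used here says how many cells entered a granulosa or cumulus library.

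Library totals ran from 7964590 to 23790100 counts. Levels are given as CPM, the counts of a gene per 1000000 counts of its library, after a joint TMM scaling of all 32 libraries, which corrects for differences in RNA composition. They are not divided by gene length, so they are compared between libraries and not between genes. Tests were edgeR quasi-likelihood tests on the counts with Benjamini-Hochberg adjustment over all rows, and a gene was called at an adjusted p under 0.05. SE is the standard error of a log2 fold change. Each cell type has a count table of its own, so cell type and table cannot be told apart. The 2 biopsy sets come from different tables and differed in 0 of 65 tested members (0% of all rows higher and 0.0132% lower, edgeR). At an unadjusted p under 0.05 in edgeR there were 3 members and 2748 of 22643 rows. This covers ooplasm only, and differences between tables were not tested for the somatic cells. Of 38 marker genes of oocyte, granulosa, cumulus, theca, immune and blood vessel cells, 1 was matched to a row, the oocyte linker histone H1FOO; the others were not analysed here, and the somatic labels were therefore not checked. H1FOO averaged 1120 ± 336 CPM in the 8 fate biopsies (SD) and was at 0 in 7 of 8 cumulus libraries. In bulk libraries, fewer cells of a type and less RNA per cell cannot be told apart.

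Granulosa libraries of the blastocyst group stood apart in breadth. They had 5 or more counts for 79 to 81 of the 87 members, against 58 to 70 in the cleavage group, 56 to 58 in cumulus cells and 57 to 73 in fate biopsies. Over all rows the same libraries had 26373 to 28629 rows detected, against 18065 to 22039 in the cleavage group, and their TMM factors were 1.49 to 2.23 against 0.997 to 1.12. Every fate result in granulosa cells below rests on these libraries. The summed level of all members was 908 to 1316 CPM in blastocyst granulosa, 1431 to 2121 in cleavage granulosa, 847 to 910 in cumulus cells and 1231 to 1984 in fate biopsies.

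**Figure D1:**
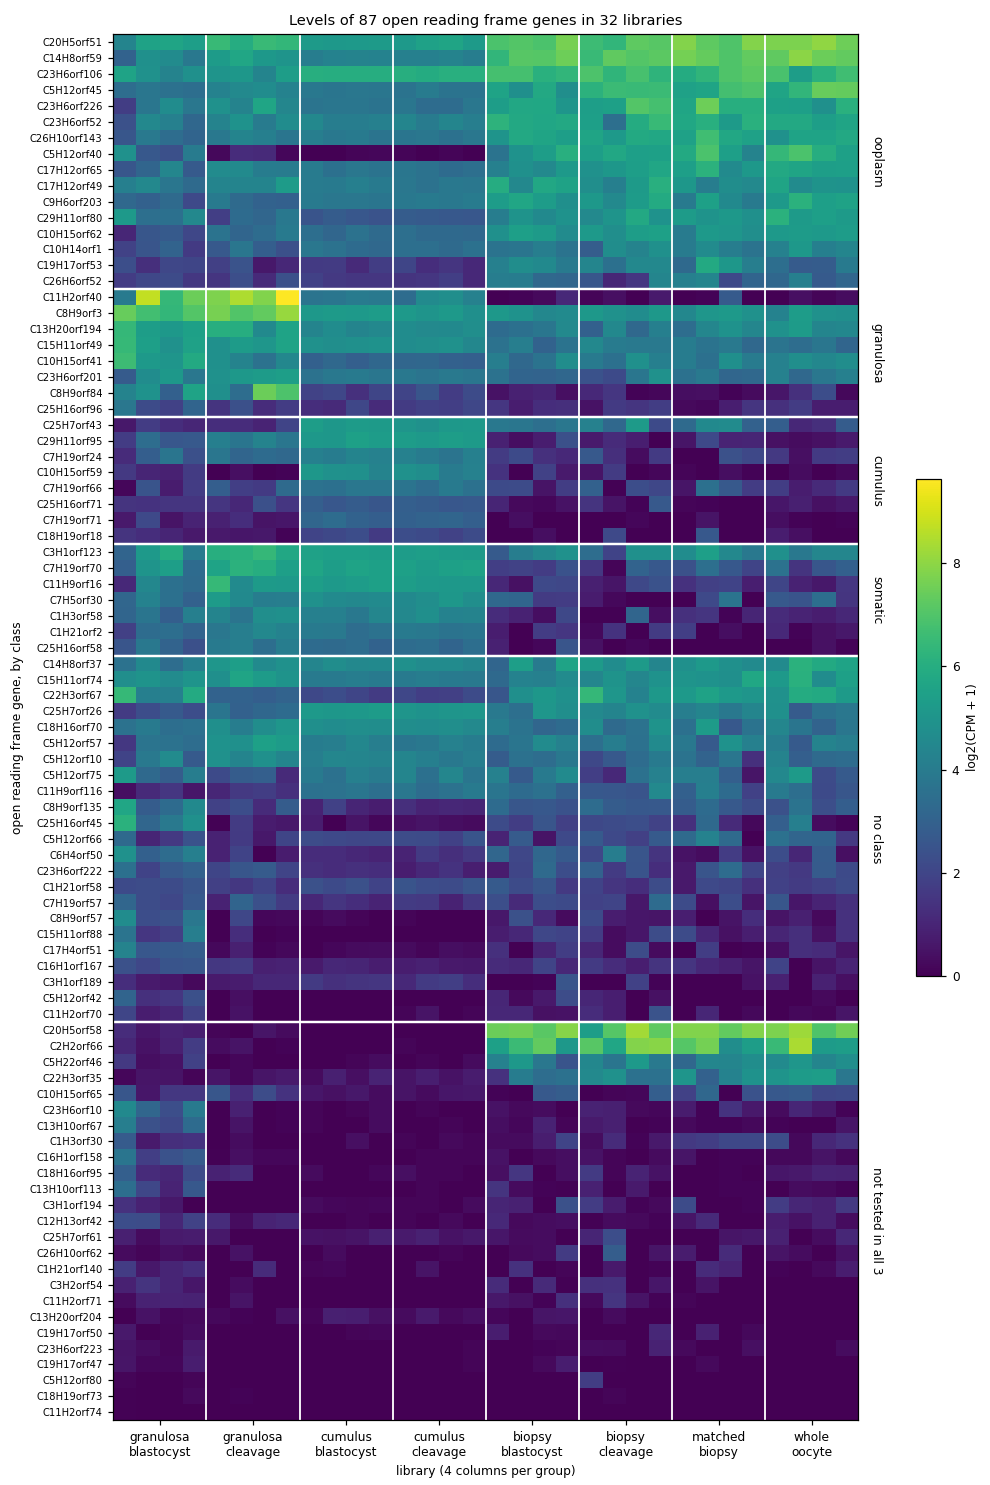
Level of each of the 87 members (rows, log2 of CPM + 1, colour) in each of the 32 libraries (columns, 4 per group), ordered by cell source class. C20H5orf58 and C2H2orf66 are bright in the 16 biopsy and oocyte columns and dark in the 8 cumulus columns, and many genes near the bottom are above 0 in the 4 blastocyst granulosa columns.

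The members split between the cell sources in about the same proportions as all genes. Between biopsies and granulosa cells, 24 of 79 tested members were higher in biopsies (30.4%, against 30.9% of all rows) and 21 were lower (26.6%, against 27.3%). Between biopsies and cumulus cells, 36 of 69 were higher in biopsies (52.2%, against 50.9%) and 19 lower (27.5%, against 33.5%). Between cumulus and granulosa cells, 12 of 70 were higher in cumulus cells (17.1%, against 26.3%) and 35 lower (50% of members, against 46.5%). Median log2 fold changes were 0.06, 0.87 and -0.72 for the members and -0.02, 0.83 and -0.55 for all rows.

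Of the 62 members tested in all 3 comparisons, 16 were higher in biopsies than in both somatic cell types (25.8%, against 22.8% of all rows), 8 were highest in granulosa cells (12.9%, against 11.5%), and 8 were highest in cumulus cells (12.9%, against 21.5%). Another 7 were lower in biopsies than in both somatic types without a class of their own (11.3%, against 10.7%), and 23 had no class. In the cleavage groups alone, the cumulus class held 1 gene and the class lower in biopsies than in both somatic types 2, in fits with fewer libraries of each cell type. The classes of all rows were not counted in those fits, so a loss shared by all rows cannot be told apart. A further 5 genes, C20H5orf58, C2H2orf66, C22H3orf35, C5H22orf46 and C3H1orf194, were higher in biopsies in both comparisons but too low in the somatic cells to be tested between them, which makes 21 of 69 members (30.4%, against 34.2% of all rows).

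The 3 largest log2 fold changes of biopsies over granulosa cells belonged to genes whose product is still unclear. C20H5orf58 had 178, 188, 142 and 236 CPM in blastocyst biopsies and 40.1, 137, 314 and 151 CPM in cleavage biopsies. All 8 cumulus libraries had 0 counts of it, against 24554 counts in the 8 biopsies, a level at least 542-fold higher in biopsies when each cumulus library is set at a floor of 3 counts. Granulosa cells had 0 to 1.33 CPM, and edgeR gave a log2 fold change of 8.67 (SE 0.55, adjusted p = 1.73e-10) for biopsies over granulosa cells. Matched biopsies and whole oocytes had 208 ± 33.0 and 206 ± 72.2 CPM (SD, n = 4), with ranges of 158.4 to 228 and 127 to 300 CPM that overlapped.

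C2H2orf66, also without a settled role, was likewise an ooplasm gene, with a wide range between oocytes. Its biopsy levels ran from 34.0 to 243 CPM with a median of 117, and its granulosa levels from 0 to 2.31 CPM. Counts summed to 17603 in biopsies and to 1 in cumulus cells, a ratio of 9125 with a 95% interval of 1638 to 360443 that covers counting error only. Between biopsies and granulosa cells the log2 fold change was 7.97 (SE 0.63, edgeR adjusted p = 3.15e-09). In whole oocytes the 4 values were 92.6, 340, 38.2 and 39.9 CPM, so oocytes 2 and 3 were above oocytes 6 and 16, as were their biopsies with 136 and 195 against 25.7 and 40.3 CPM.

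C5H22orf46 and C22H3orf35 were 2 further genes with biopsy levels above every somatic library. C5H22orf46 had 4.65 to 35.9 CPM in biopsies (median 15.9) and at most 2.60 CPM in any granulosa library, a log2 fold change of 6.46 (SE 0.75, edgeR adjusted p = 5.17e-07). C22H3orf35 had 1.6 to 28.3 CPM in biopsies (median 11.2) and at most 0.613 CPM in granulosa cells, a log2 fold change of 5.25 (SE 0.60, edgeR adjusted p = 4.19e-07). Cumulus cells had at most 0.234 and 0.935 CPM of them. In whole oocytes C22H3orf35 averaged 30.6 ± 12.4 CPM and C5H22orf46 25.3 ± 5.12 CPM (SD, n = 4).

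Members with a role in DNA repair and meiosis differed among themselves in where they were found. Meiotic recombination takes place in the oocytes of the fetal ovary, long before the maturation studied here. Of 5 members with such a role (3 from a list drawn up first and 2 added after values were seen), 4 were higher and 1 lower in biopsies than in cumulus cells, where 50.9% of all rows were higher, and 3 were higher and 1 lower than in granulosa cells, where 30.9% were. On the list drawn up first, the counts were 3 higher of 3 and 2 higher of 3, with 0 lower. C5H12orf40, the counterpart of REDIC1, a meiotic recombination factor, had 11.8 to 65.9 CPM in biopsies with a median of 41.7. In cumulus cells it summed to 4 counts over 8 libraries, a log2 fold change of 9.63 (SE 0.53, edgeR adjusted p = 2.70e-11). Granulosa cells of the blastocyst group had 28.1, 5.29, 4.08 and 14.9 CPM and those of the cleavage group 0.157, 1.36, 1.23 and 0.111 CPM, so its biopsy and granulosa ranges overlapped through libraries B20 and D27 (log2 fold change 3.74, SE 0.56, adjusted p = 1.09e-05).

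C19H17orf53, the counterpart of HROB, which loads a helicase in homologous recombination, had 10.6 to 25.6 CPM in biopsies, against 1.19 to 3.01 in cumulus and 0.528 to 4.59 in granulosa cells. The groups did not overlap, and the log2 fold changes were 3.63 (SE 0.30, edgeR adjusted p = 5.11e-09) and 2.93 (SE 0.45, adjusted p = 1.54e-05). C29H11orf80, the counterpart of TOP6BL of the enzyme that makes meiotic DNA breaks, had 15.8 to 55.9 CPM in biopsies and 4.56 to 5.99 in cumulus cells (log2 fold change 2.75, SE 0.23, adjusted p = 6.44e-09). It was nearer in granulosa cells, at 2.46 to 35.6 CPM (log2 fold change 1.18, SE 0.38, adjusted p = 0.0118). C7H19orf57, the counterpart of the meiotic factor BRME1, was higher in biopsies than in cumulus cells by a log2 fold change of 1.499 (SE 0.51, adjusted p = 0.0111), and its difference from granulosa cells was -0.31 (SE 0.58, adjusted p = 0.672).

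The member of this group that was lower in biopsies was C8H9orf84, the counterpart of the crossover factor SHOC1. Its granulosa levels were 18.6, 28.8, 6.71 and 47.6 CPM in the blastocyst group and 27.2, 9.80, 178 and 121 CPM in the cleavage group, while all 8 biopsies lay between 0.0619 and 1.85 CPM. Cumulus cells had 1.52 to 4.85 CPM. It was lower in biopsies than in granulosa cells (log2 fold change -5.99, SE 0.75, edgeR adjusted p = 1.29e-06) and lower in cumulus than in granulosa cells (-4.25, SE 0.56, adjusted p = 6.31e-06), so it was a granulosa gene here. Granulosa libraries D10 and D29 carried most of its counts.

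Several genes that serve the making of ribosomes and mitochondria were also higher in the ooplasm. C14H8orf59, the counterpart of the ribosome biogenesis factor RBIS, had 79.2 to 179 CPM in biopsies, 15.8 to 18.8 in cumulus cells and 7.15 to 50.8 in granulosa cells. Its log2 fold changes were 3.21 over cumulus (SE 0.17, edgeR adjusted p = 1.21e-11) and 2.33 over granulosa cells (SE 0.29, adjusted p = 1.21e-06), with no overlap in either comparison. C5H12orf45, the counterpart of NOPCHAP1, a cofactor for assembling the small nucleolar particles that modify ribosomal RNA, had 25.8 to 94.9 CPM in biopsies, above all 16 somatic libraries, whose highest value was 25. Of 4 members with an RNA or ribosome role (2 listed first and 2 added), 3 were higher in biopsies than in granulosa cells and 0 lower (30.9% of all rows higher). Against cumulus cells 2 were higher and 1 lower (50.9% of all rows higher), and the 2 listed first were split, 1 higher and 1 lower.

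Among 3 mitochondrial members, 2 were higher and 1 lower in biopsies than in either somatic cell type. Of all rows, 30.9% were higher and 27.3% lower in biopsies than in granulosa cells, and 50.9% higher and 33.5% lower than in cumulus cells. C9H6orf203, the counterpart of the mitochondrial transcription rescue factor MTRES1, had 22.1 to 58.3 CPM in biopsies, 12.5 to 14.9 in cumulus and 3.42 to 14.2 in granulosa cells (log2 fold changes 1.80, SE 0.20, and 2.25, SE 0.33; edgeR adjusted p = 2.66e-07 and 7.25e-06). C17H12orf65, the counterpart of MTRFR, which frees stalled mitochondrial ribosomes, was higher by 1.71 (SE 0.20, adjusted p = 4.52e-07) and 1.19 (SE 0.34, adjusted p = 0.00474). The member that went the other way was C7H19orf70, the counterpart of MICOS13, a part of the complex that shapes the inner membrane. It had 0.103 to 7.49 CPM in biopsies, 38.1 to 49.7 in cumulus and 6.47 to 72.4 in granulosa cells (log2 fold changes -3.44, SE 0.47, and -3.40, SE 0.58; adjusted p = 3.23e-06 and 5.07e-05).

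Other ooplasm genes had mixed or unknown roles. C23H6orf106, the counterpart of ILRUN, a regulator of antiviral signalling, had 67.9 to 122 CPM in biopsies, 59.5 to 66.3 in cumulus cells and 18.8 to 47.6 in granulosa cells, 3 ranges that do not meet. C20H5orf51, the counterpart of RIMOC1, which acts in the removal of damaged mitochondria, had 79.9 to 203.3 CPM in biopsies and 34.3 to 48.4 in cumulus cells (log2 fold change 2.03, SE 0.15, edgeR adjusted p = 1.39e-09). Its granulosa levels, at 19.3 to 91.9 CPM, overlapped those of the biopsies. C17H12orf49, the counterpart of SPRING1, a regulator of cholesterol synthesis, and C26H10orf143 and C23H6orf226, without a settled role, were higher in biopsies by 1.12 to 2.66 on the log2 scale over the 2 somatic types. C23H6orf52 and C26H6orf52 carry the same human label, and both were higher in biopsies, by 1.70 and 1.73 over granulosa cells and by 1.91 and 2.52 over cumulus cells. Whether reads of these similarly named genes are shared was not tested.

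**Figure D2:**
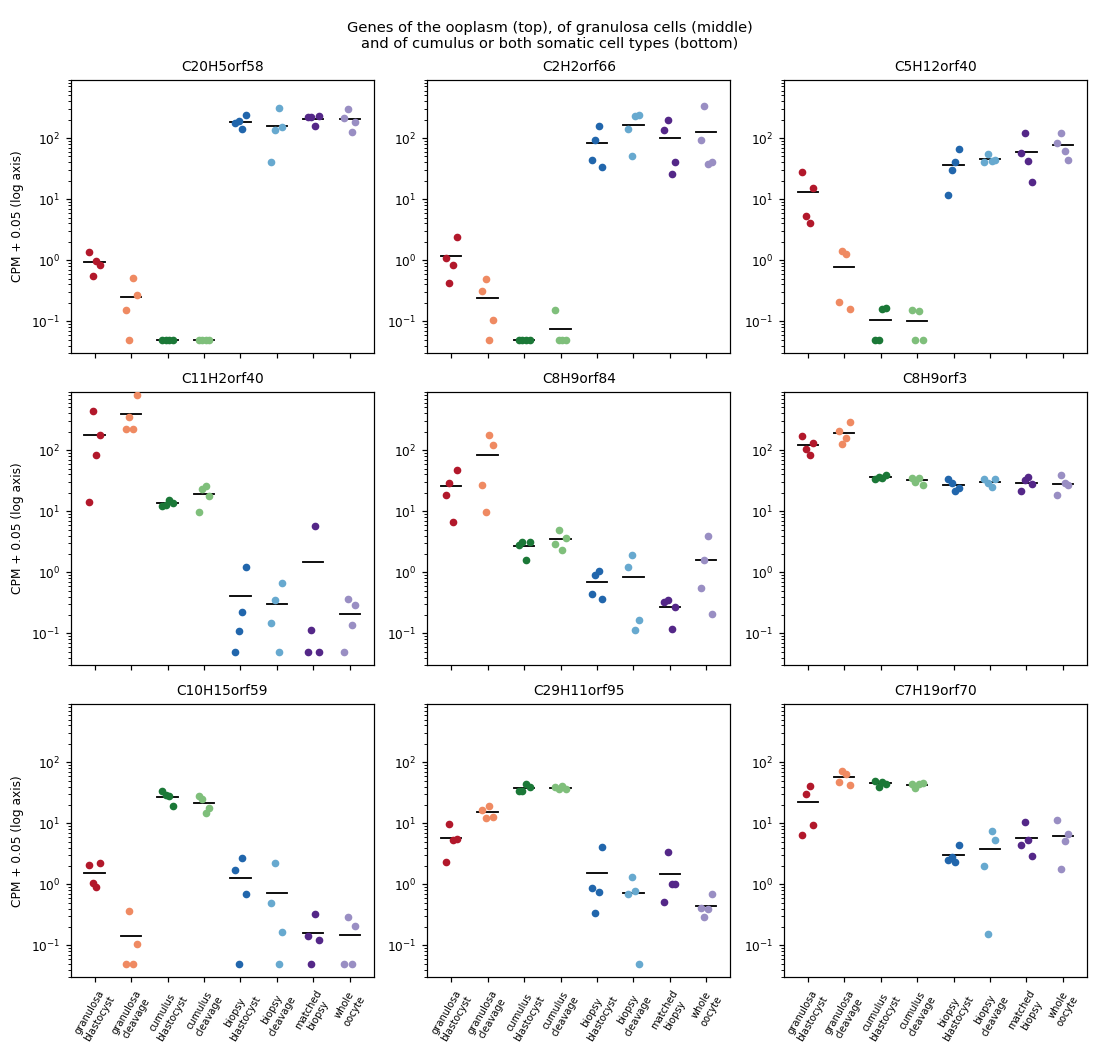
Level in every library (CPM + 0.05, log axis) of 3 ooplasm genes (top), 3 granulosa genes (middle) and 3 genes of cumulus or both somatic types (bottom), by group; points are libraries and bars are means of 4. C20H5orf58 and C2H2orf66 lie near the floor in cumulus cells, and C5H12orf40 reaches 28.1 CPM in 1 blastocyst granulosa library.

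In granulosa cells 8 genes were called higher than in both other sources, without being confined to them. C11H2orf40, the counterpart of ECRG4, a secreted peptide precursor, had 14.2, 433, 83.6 and 178 CPM in blastocyst granulosa and 218, 351, 222 and 794 CPM in cleavage granulosa. Cumulus cells had 9.64 to 25.8 CPM and biopsies 0 to 1.17 CPM. It was lower in biopsies than in granulosa cells (log2 fold change -9.74, SE 0.91, edgeR adjusted p = 3.03e-08) and lower in cumulus than in granulosa cells (-4.27, SE 0.52, adjusted p = 2.66e-06). Library B20 was the only granulosa library within the cumulus range.

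C8H9orf3, the counterpart of the aminopeptidase AOPEP, had 82.2 to 284 CPM in granulosa cells, above all 8 cumulus libraries (27 to 38.9) and all 8 biopsies (21.1 to 34.1). The log2 fold changes against granulosa cells were -2.47 for cumulus cells (SE 0.23, edgeR adjusted p = 1.26e-07) and -2.42 for biopsies (SE 0.25, adjusted p = 7.92e-08), while biopsies and cumulus cells differed by 0.06 (SE 0.16, adjusted p = 0.715). C13H20orf194, the counterpart of the dynein assembly factor DNAAF9, had 22.7 to 84.6 CPM in granulosa cells against 6.67 to 21.9 in biopsies and 19.1 to 26.3 in cumulus cells. C15H11orf49, the counterpart of CSTPP1 of the enzyme complex that modifies tubulin, had 27.8 to 87 CPM against 7.15 to 21.7 and 20.9 to 28.7. For both genes the cumulus and granulosa ranges overlapped. C10H15orf41, the counterpart of CDIN1, which is mutated in an inherited anaemia, had 11.5 to 95.5 CPM in granulosa cells and 6.58 to 8.43 in cumulus cells, with biopsies between at 8.44 to 27.5.

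Cumulus cells were highest for 8 genes with both fates in the fit, and for 1 in the cleavage groups alone. C25H7orf43, the counterpart of TRAPPC14, a subunit of a vesicle tethering complex, had 28.2 to 40.3 CPM in cumulus cells, 0.550 to 2.95 in granulosa cells and 3.54 to 36.9 in biopsies. Cumulus exceeded granulosa cells by a log2 fold change of 4.30 (SE 0.27, edgeR adjusted p = 1.88e-09). C10H15orf59, the counterpart of INSYN1, known from inhibitory synapses, had 14.9 to 33.7 CPM in cumulus cells against 0 to 2.17 in granulosa cells and 0 to 2.64 in biopsies (log2 fold change 5.69 over granulosa, SE 0.48, adjusted p = 5.02e-08). C29H11orf95, the counterpart of the transcription regulator ZFTA, had 33.4 to 43.8 CPM in cumulus cells, 2.25 to 19.1 in granulosa cells and 0 to 4.11 in biopsies, 2 gaps that set cumulus cells apart. C7H19orf66, the counterpart of SHFL, which stops programmed frameshifting, had 10.02 to 14.3 CPM in cumulus cells, above both other sources.

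Shared somatic genes formed a set of 7. C11H9orf16, the counterpart of the filament-organising protein BBLN, had 33.9 to 43.5 CPM in cumulus cells, 1.15 to 87 in granulosa cells and 0.345 to 4.33 in biopsies. C7H5orf30, the counterpart of MACIR, a partner of the trafficking protein UNC119, had 21.6 to 33.0, 7.03 to 37.7 and 0 to 8.48 CPM. Its log2 fold change in biopsies was -4.24 against cumulus cells (SE 0.56, edgeR adjusted p = 2.13e-06) and -3.89 against granulosa cells (SE 0.65, adjusted p = 3.97e-05). C1H3orf58, the counterpart of the kinase-like DIPK2A, and C7H5orf30 were the 2 of 3 signalling and trafficking members that were lower in biopsies than in both somatic types. Of all rows, 27.3% were lower in biopsies than in granulosa cells and 33.5% than in cumulus cells. The third member, C5H12orf66, the counterpart of KICS2, which restrains mTORC1, had differences of 0.38 and 0.23 that were not called. C3H1orf123, the counterpart of the zinc-binding protein CZIB, and C1H21orf2, the counterpart of the ciliary protein CFAP410, also belonged to this set, as did the mitochondrial C7H19orf70.

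Genes of cilia were called in both directions, as all rows were. There were 16 members with a role in cilia or the axoneme (11 listed first and 5 added). Against granulosa cells, 2 were higher and 5 lower in biopsies (all rows: 30.9% and 27.3%). Against cumulus cells, 5 of 13 tested were higher in biopsies and 4 lower (all rows: 50.9% and 33.5%). Between cumulus and granulosa cells, 3 of 14 tested were higher in cumulus cells and 8 lower (all rows: 26.3% and 46.5%). On the list drawn up first, higher and lower were 2 and 2 of 11, 3 and 2 of 8, and 2 and 4 of 9. C11H9orf116, the counterpart of PIERCE1, a protein inside ciliary microtubules, had 9.49 to 14.5 CPM in cumulus cells and 4.64 to 22.5 in biopsies, against 0.275 to 2.34 in granulosa cells (log2 fold changes over granulosa 2.97, SE 0.33, and 2.90, SE 0.54; edgeR adjusted p = 7.64e-07 and 0.000120). C22H3orf67, the counterpart of CFAP20DC, had 4.95 to 83.9 CPM in biopsies and 2.22 to 3.88 in cumulus cells (log2 fold change 3.68, SE 0.39, adjusted p = 1.85e-07). C7H19orf71, the counterpart of TEKTIP1 of the axonemal tektin bundle, had 6.42 to 9.65 CPM in cumulus cells against 0.410 to 3.40 in granulosa cells and 0 to 0.287 in biopsies.

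Whether the fate of the oocyte goes with the level of these genes was asked in each cell type. In granulosa cells 16 of 73 tested members were higher in the blastocyst group (21.9%, against 21.3% of all rows) and 1 was lower (1.37%, against 0.349%). The share of members called higher was thus near that of all rows, and the median log2 fold change was 0.10 for members and 0.10 for all rows. The scaling shifts the whole table: the median of all rows was 0.48 under the size factors of DESeq2, and 0.70 with library totals, which carry no correction for composition. Both scalings raised the log2 fold change of each of the 16 genes called higher. That all 16 were still called under both therefore adds no support to the calls.

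The genes called higher were mostly ones with few or no counts in the cleavage group. C16H1orf158, the counterpart of CFAP107, a protein inside ciliary microtubules, had 12.3, 2.42, 4.41 and 5.87 CPM in libraries B20, B21, D24 and D27 and 0.0524, 0.310, 0.117 and 0.111 CPM in the cleavage libraries. The log2 fold change was 5.46 (SE 0.93, edgeR adjusted p = 0.0116). In cumulus cells it summed to 3 counts, and biopsies had 0 to 0.390 CPM. C13H10orf113 had 10.1, 3.16, 0.947 and 5.30 CPM in the blastocyst group, 431 counts in all, and 0 counts in the cleavage group, so it was at least 28.5-fold higher with each cleavage library at 3 counts (adjusted p = 0.0116).

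C17H4orf51, of unclear function, had 18.9, 5.17, 5.56 and 6.21 CPM against 0.157, 0.806, 0.0586 and 0.167 (log2 fold change 4.97, SE 0.98, edgeR adjusted p = 0.0116). C25H16orf45, the counterpart of BMERB1, a microtubule-linked protein of nerve cells, had 70.3, 8.08, 13.9 and 27.7 CPM against 0.0524, 2.17, 0.645 and 0.557 (5.19, SE 1.06, adjusted p = 0.0117). C22H3orf67 had 87, 17, 17.1 and 58.1 CPM against a narrow 6.45 to 7.41 (2.80, SE 0.57, adjusted p = 0.0117). In each of these genes every blastocyst library lay above every cleavage library.

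C13H10orf67 had 16.6, 4.18, 3.25 and 9.44 CPM in the blastocyst group and at most 0.434 in the cleavage group (log2 fold change 6.12, SE 1.29, edgeR adjusted p = 0.0121). C23H6orf10, the counterpart of TSBP1, a testis protein, had 22.5, 8.08, 3.91 and 14.7 CPM against at most 0.868 (5.77, SE 1.35, adjusted p = 0.0160). C5H12orf40, the ooplasm gene above, differed by 4.27 (SE 1.02, adjusted p = 0.0168). The other 8 genes called higher were C5H12orf42, C8H9orf135, C1H3orf30, C6H4orf50, C10H15orf41, C10H15orf59, C3H2orf54 and C11H2orf70, with log2 fold changes from 1.62 to 5.604. Groups overlapped for C8H9orf135 alone of all 16. The 16 were picked by a test on these same libraries, so their separation adds no support to the calls. The share of all rows without overlap was not counted.

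**Figure D3:**
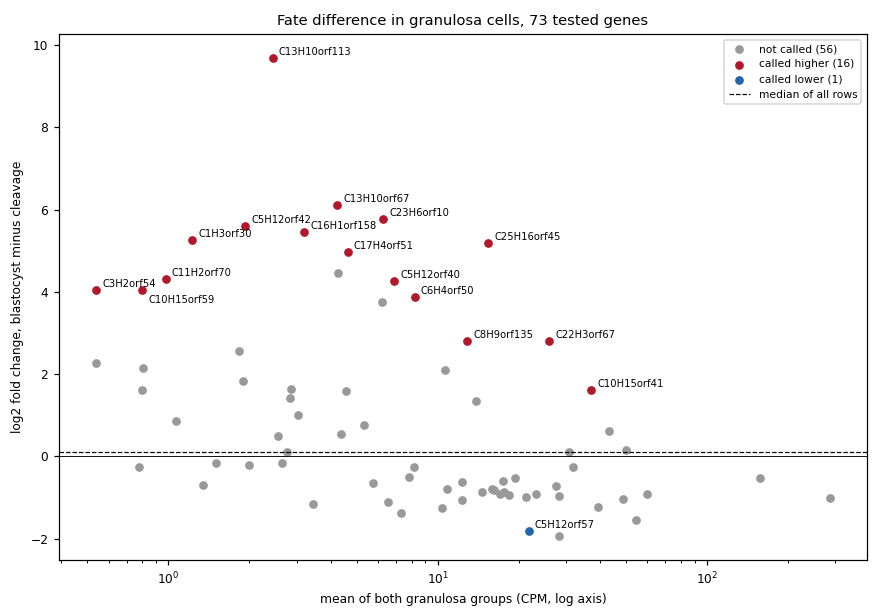
Log2 fold change between granulosa cells of the blastocyst and cleavage groups (vertical axis) against the mean level of both groups in CPM (horizontal log axis) for the 73 tested members; red points are called higher, the blue point lower, and the dashed line is the median of all rows. The called genes sit mostly at low levels, and the fitted value of C13H10orf113 has no upper limit because its cleavage libraries are at 0.

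Library B20 had the highest value for 14 of the 16 genes called higher, with D27 and B21 highest for 1 each, and 12 of the 16 had their highest cleavage value in library B23. B20 was also the smallest granulosa library, at 9875700 counts. H1FOO moved with these genes: it was 8.92 ± 5.04 CPM in blastocyst and 1.41 ± 2.12 CPM in cleavage granulosa (SD, n = 4), with 15.5 in B20 and 4.59 in B23. Set against the biopsies, H1FOO in blastocyst granulosa was at 0.797% of its biopsy level and C5H12orf40 at 31.9% of its own (lowest library 9.93%, highest 68.4%), while cleavage granulosa had 0.126% and 1.74%. Members of the ooplasm class as a set did not rise with H1FOO. Of 16 tested, 1 was called higher by fate in granulosa cells, C5H12orf40, beside 21.3% of all rows. Only 5 had a positive log2 fold change, and the class median was -0.62. The part of oocyte RNA or of detection breadth in the fate difference was not tested.

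The calls depended on few libraries. Without B20 and D27 the comparison called 0 members. The log2 fold changes of the 16 genes then ran from 0.995 to 8.50. Their positive signs follow from the choice of these genes on the same libraries and add no support. Without 1 library at a time, 9 to 22 members were called higher, with 9 left without D27, 10 without B20 and 10 without D29. Of the 17 called genes, 8 were called in each of the 8 fits that left out 1 library: these are the 8 described with values above, from C16H1orf158 to C5H12orf40.

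C5H12orf57, mutated in Temtamy syndrome, a developmental disorder of brain and eye, was the 1 gene called lower. It had 1.97, 12.2, 11.4 and 10.01 CPM in the blastocyst group against 29.4, 27.8, 44.0 and 37.7 in the cleavage group, and no blastocyst library reached the cleavage range. The log2 fold change was -1.81 (SE 0.54, edgeR adjusted p = 0.0367). The call was lost with library totals as scaling (-1.32, adjusted p = 0.0656) and in 4 of the 8 fits that left out 1 library, those without D27, B14, D10 or D29, where the values over all 8 ran from -2.14 to -1.34.

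**Figure D4:**
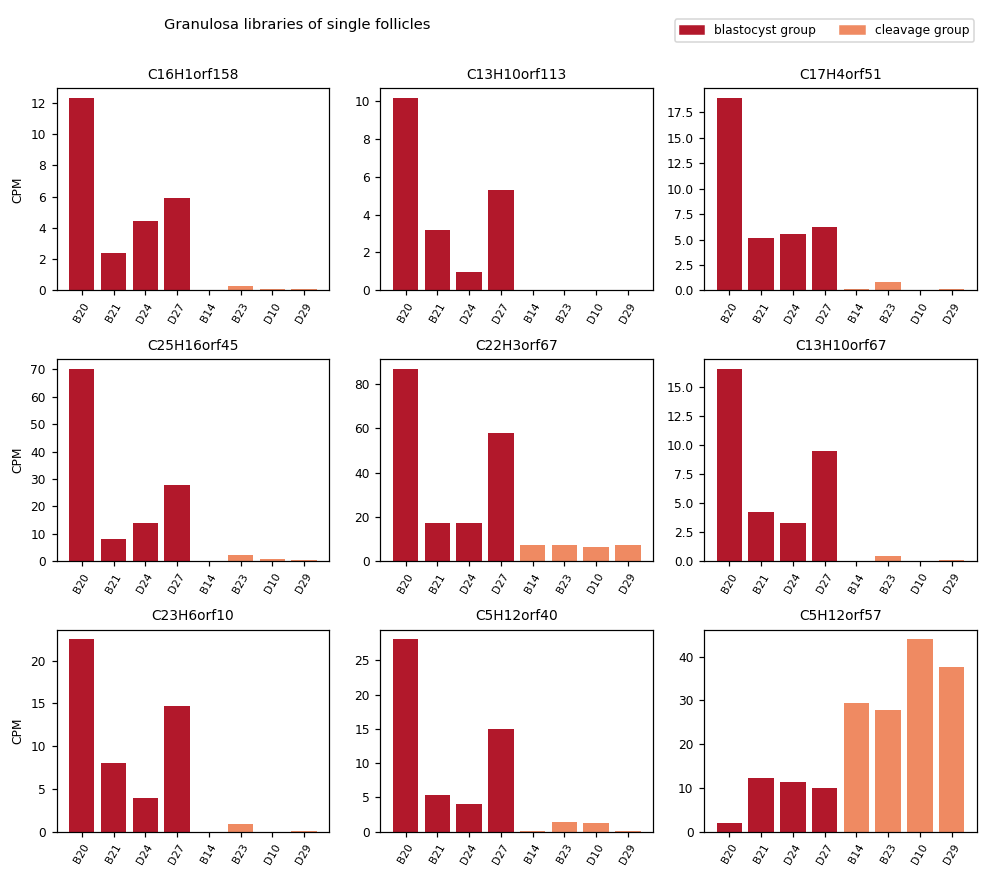
Level in CPM of 9 members in each of the 8 granulosa libraries, as bars from 0, with the blastocyst group in red and the cleavage group in orange. B20 has the tallest bar for the 8 genes called higher and the shortest for C5H12orf57.

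Of the 14 tested members with a ciliary role, 3 were called higher in blastocyst than in cleavage granulosa cells (C16H1orf158, C22H3orf67 and C8H9orf135), beside 21.3% of all rows called higher, and 0 lower, with a median of -0.01. C22H3orf67 was added to the list after values were seen. On the list drawn up first, 2 of 9 tested were called higher and 0 lower, with a median of -0.25.

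In cumulus cells 0 of 53 tested members were called by fate, as were 0% of all rows in either direction. At an unadjusted p under 0.05 there were 4 members and 2249 of all rows in edgeR. DESeq2 called 0 members, and over all rows 27 higher and 132 lower. Levels were close between libraries. C25H7orf26, the counterpart of INTS15 of the Integrator complex, had 35.5, 33.4, 34.1 and 38.5 CPM in the blastocyst group and 31.6, 29.4, 31.4 and 32.1 in the cleavage group. Its log2 fold change of 0.19 (SE 0.08, edgeR adjusted p = 0.296) had the smallest p, and the groups did not overlap. C25H7orf43 differed by 0.21 (SE 0.09, adjusted p = 0.303) and C17H12orf49 by 0.24 (SE 0.11, adjusted p = 0.330). C5H12orf57 differed by 0.23 (SE 0.13, adjusted p = 0.448), and C7H5orf30 by -0.15 (SE 0.12, adjusted p = 0.579).

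In the ooplasm 0 of 63 tested members were called by fate, against 0% of all rows, with 3 members and 1017 of all rows at an unadjusted p under 0.05 in edgeR. C5H12orf45 had the smallest p. Its levels were 47.4, 26.5, 55.2 and 25.8 CPM in blastocyst biopsies and 71.5, 94.9, 91.8 and 94.3 CPM in cleavage biopsies, so every cleavage biopsy was above every blastocyst biopsy. The log2 fold change was -1.22 (SE 0.33, edgeR adjusted p = 0.717). In the matched set, where fate is not known, the 4 biopsies had 45.2, 48.6, 108 and 123 CPM, which spans both groups.

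C7H5orf30 came next in the biopsies. It had 8.48, 7.87, 2.17 and 2.30 CPM in the blastocyst group and 0.682, 0.154, 0 and 0 CPM in the cleavage group, with no overlap. The log2 fold change was 4.51 (SE 1.38, edgeR adjusted p = 0.932), and DESeq2, which called this 1 member, gave 4.55 with an adjusted p of 0.0166. Over all rows DESeq2 called 118 higher and 64 lower. Matched biopsies had 0, 3.38, 11.9 and 0 CPM, and whole oocytes 5.41, 4.73, 10.1 and 1.82 CPM, so 2 of the 4 matched biopsies had no count of a gene found in their own oocyte. C23H6orf226 differed by -0.89 (SE 0.39, edgeR adjusted p = 1), with groups that overlapped.

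Whether the fate effect differs between granulosa cells and biopsies was tested directly, and the difference was called for 8 of 79 members: 7 had a more positive fate difference in granulosa cells (8.86%, against 6.35% of all rows) and 1 a more negative one (1.27%, against 0.549%). These comparisons use the same granulosa libraries as the fate test and are not independent of it. C7H5orf30 was the gene with the negative value, -5.63 (SE 1.24, edgeR adjusted p = 0.0181): in granulosa cells it had 11 ± 5.04 CPM in the blastocyst and 23.2 ± 10.1 CPM in the cleavage group (SD, n = 4), the reverse order of the biopsies. Its granulosa fate difference was not called by itself (-0.92, SE 0.47, edgeR adjusted p = 0.174), and the groups overlapped. Nor was its biopsy difference called in edgeR (adjusted p = 0.932). C25H16orf45 had the smallest p, with a difference of 5.16 (SE 1.14, adjusted p = 0.0181). C5H12orf40 differed by 4.50 (SE 1.05, adjusted p = 0.0224), with 36.8 ± 22.6 and 45.3 ± 5.91 CPM in blastocyst and cleavage biopsies. Without granulosa library B20 the number more positive in granulosa cells was 0, and with the follicle label as a block it was 4.

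Between granulosa and cumulus cells the fate difference differed for 11 of 70 members, 9 more positive in granulosa cells (12.9%, against 9.91% of all rows) and 2 more negative (2.86%, against 0.319%). C10H15orf59, the cumulus gene above, was among the 9: it had 1.51 ± 0.679 CPM in blastocyst and 0.0914 ± 0.148 in cleavage granulosa, and 27.2 ± 6.08 and 21.6 ± 6.31 CPM in cumulus cells (SD, n = 4; difference 4.12, SE 0.89, edgeR adjusted p = 0.0126). C5H12orf57 was 1 of the 2 with a negative difference, -1.85 (SE 0.51, adjusted p = 0.0320), and C25H7orf26 the other, -1.08 (SE 0.33, adjusted p = 0.0496). The 9 became 1 without B20 and D27.

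Matched biopsies and whole oocytes were compared to see how well a drop of cytoplasm stands for the cell. None of the 53 tested members was called, and 0% of all rows were, with 3 members and 1028 rows at an unadjusted p under 0.05 in edgeR and 0 members called by DESeq2. With the pair as a block, 0 members were called and 4 had an unadjusted p under 0.05. C25H7orf43 had 9.07, 23.1, 23.9 and 7.03 CPM in biopsies 2, 3, 6 and 16 and 6.35, 1.12, 1.47 and 5.95 CPM in the oocytes of the same numbers, each biopsy above its own oocyte (log2 fold change 2.21, SE 0.69, edgeR adjusted p = 0.695). C19H17orf53 had 8.89, 57.1, 33.2 and 16.6 CPM against 10.2, 5.86, 6.07 and 14.2 (1.80, SE 0.57, adjusted p = 0.695). C23H6orf226 had 90.2 ± 61.8 against 45.8 ± 17.2 CPM (SD, n = 4; 1.11, SE 0.44, adjusted p = 0.795). C5H12orf45 differed by -0.37 (SE 0.44, adjusted p = 0.980).

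**Figure D5:**
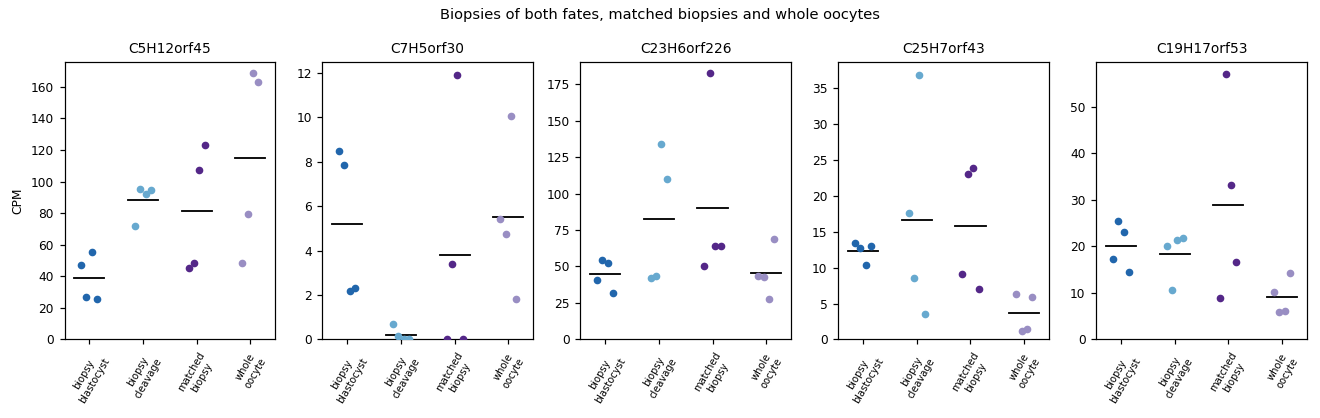
Level in CPM (vertical axes start at 0) of 5 members in blastocyst biopsies, cleavage biopsies, matched biopsies and whole oocytes; points are libraries and bars are means of 4. C5H12orf45 and C7H5orf30 separate the fate groups without passing the adjusted threshold in edgeR, and C25H7orf43 is higher in each matched biopsy than in its oocyte.

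The ooplasm genes with the largest folds over granulosa cells were also higher in whole oocytes. Against granulosa cells, whole oocytes had 23 of 78 tested members higher (29.5%, against 30.1% of all rows) and 23 lower (29.5%, against 40.3%), a comparison added after values were seen. The log2 fold changes were 8.68 for C20H5orf58 (SE 0.54), 7.83 for C2H2orf66 (SE 0.78), 6.26 for C22H3orf35 (SE 0.54), 6.56 for C5H22orf46 (SE 0.78) and 4.38 for C5H12orf40 (SE 0.65). Among the other ooplasm genes, C17H12orf49 (0.58, SE 0.36, edgeR adjusted p = 0.157) and C23H6orf226 (1.03, SE 0.46, adjusted p = 0.0547) were not called. C23H6orf106 was called (1.16, SE 0.37, adjusted p = 0.0116), but whole oocyte 3, at 40.2 CPM, lay within its granulosa range. C11H2orf40 and C8H9orf84, the granulosa genes, were lower in whole oocytes, at -10.82 (SE 1.16) and -5.17 (SE 1.03) on the same scale. C7H5orf30 differed less from granulosa cells in whole oocytes, at -1.75 (SE 0.51, edgeR adjusted p = 0.00687), than in biopsies, and that contrast was not tested.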

How the data were processed

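The authors deposited 4 tables of raw counts, 1 column per library and 59051 rows; the submitters' processing notes name STAR and featureCounts, after trimming by Trim Galore with cutadapt, without versions. For the genome build and the strand setting, nothing was given in the sources used here. The labels' protocols name the SMART-Seq HT kit for cDNA and Nextera XT for libraries. Cumulus columns name the fate group but carry other numbers than the sample titles, so each was used as an unnumbered library of its group. The polar body methylation table, with 24 columns that were not tied to samples, was not used.

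Counts were tested as deposited with edgeR 4.0.16 (filterByExpr, TMM, robust quasi-likelihood fit, Benjamini-Hochberg over all rows tested) in R 4.3.3: 2 groups for each fate comparison and for matched pairs, 4 groups for cell types and interactions. DESeq2 1.42.0, other scalings, no low-count filter, left-out libraries, blocks, cleavage groups alone and a 4-fold minimum were alternatives, and the label letter (B or D) as a covariate was added after seeing the data. CPM came from 1 TMM scaling of all 32 libraries and fold changes from each comparison's own fit. The script was tested on simulated data. Where a group had 0 counts, folds used a floor of 3 counts per library. Intervals and floors cover counting error only.

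Genes named were the 4 examples of the rule, up to 8 called members per direction of smallest p (fate, interaction, matched) or largest fold at 10 CPM or more (cell types), the 3 of smallest p where fewer than 3 were called, the 5 of highest level per source, and role list members; others were chosen after their values were seen. The members and lists were chosen with earlier results of these data known, and 9 of 31 role assignments were added after values were seen. Names and roles of counterparts are background. Matched biopsies and oocytes of the same number deviated together (correlation of deviations 0.17 to 0.26 in 4 pairs), and labels tie biopsy and granulosa cells to a follicle (-0.02 to 0.14 in 8 pairs). Nothing says that cumulus libraries came from separate follicles, so those p-values measure the spread between these samples.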

Additional observations from a re-analysis of the deposited data

Results flagged for a closer look

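In 8 of the 71 groups of 4 libraries examined, 1 library lay far from the other 3 by Dixon's test, which chance alone does in about 1 of 20 groups. In granulosa cells these were C17H4orf51 in blastocyst library B20 (18.9 CPM, nearest 6.21) and, in cleavage library B23, C17H4orf51 (0.806 CPM, nearest 0.167), C13H10orf67 (0.434, nearest 0.0557) and C23H6orf10 (0.868, nearest 0.0557). In the oocyte they were C5H12orf45 in cleavage biopsy B14 (71.5 CPM, nearest 91.8) and C23H6orf226 in matched biopsy 3 (182, nearest 64.3). In cumulus cells they were C17H12orf49 in cleavage library 6 (11.3 CPM, nearest 13.3) and C23H6orf106 in blastocyst library 9 (65.3, nearest 62.8).

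The fate difference itself differed between cell types for the genes that follow, in edgeR tests of the interaction. Values are log2 fold changes of blastocyst over cleavage in granulosa cells minus the same in the other source, and fitted values of genes with a group at 0 counts depend on the prior count. Against biopsies the difference was 5.16 for C25H16orf45, -5.63 for C7H5orf30, 4.50 for C5H12orf40, 3.55 for C22H3orf67, 5.48 for C5H22orf46, 7.04 for C23H6orf10, 9.03 for C13H10orf113 and 3.56 for C2H2orf66. Against cumulus cells it was 9.05 for C16H1orf158, 4.12 for C10H15orf59, 5.96 for C17H4orf51, 3.13 for C22H3orf67, 4.82 for C6H4orf50, 5.65 for C25H16orf45, -1.85 for C5H12orf57, 1.96 for C10H15orf41, 8.89 for C11H2orf70, 2.67 for C5H12orf75 and -1.08 for C25H7orf26. C22H3orf67 and C25H16orf45 appear in both, through the same granulosa libraries. Without granulosa library B20, members with a more positive difference numbered 0 in place of 7 against biopsies and 6 in place of 9 against cumulus cells.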

How the results depend on the processing

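In the cell-type comparisons no named gene changed sign. The call was kept in every alternative by 16 of 16, 15 of 16 and 13 of 16 named genes for biopsies against granulosa, biopsies against cumulus and cumulus against granulosa cells. These genes were named for the largest folds in the same fits, so their kept calls follow in part from that choice and do not describe all members. Without 1 library at a time, the counts of members higher and lower were 22 to 27 and 19 to 25, 33 to 38 and 18 to 20, and 12 to 16 and 33 to 40. In the cleavage groups alone, members lower in biopsies than in cumulus cells numbered 10 of 61 tested, against 5883 of 19321 rows. The cumulus class held 1 gene there and the somatic class 2. A 4-fold minimum left 4 ooplasm, 3 granulosa and 2 cumulus genes. Classes of all rows were not counted in these settings.

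Fate calls in granulosa cells and both interactions changed with the settings. In granulosa cells, members higher numbered 32 with DESeq2, 0 without B20 and D27, 17 with the label letter as a covariate, and 9 to 22 without 1 library (10 without B20, 9 without D27, 10 without D29). Members lower numbered 0 with library totals, 3 with DESeq2, 0 without B20 and D27, and 0 to 3 without 1 library. The interaction with biopsies had 14 higher with library totals, 16 with DESeq2, 0 without B20 and D27 and 4 with the follicle label as a replicate block. Without 1 library it had 0 to 20 higher: 0 without B20, 2 without granulosa D27, B14 or D29, 20 without B23, 13 and 11 without biopsy D10 or D29. It had 5 lower with DESeq2, 0 without both and 1 to 2 without 1 library. The interaction with cumulus cells had 19 higher with DESeq2, 1 without B20 and D27 and 4 to 14 without 1 library (14 without B21, 4 or 5 without 7 of the 8 cumulus libraries). It had 1 lower with DESeq2 size factors, library totals, no filter or without both, 5 with DESeq2 and 0 to 7 without 1 library. The cause was not tested, beyond fewer libraries in fits that left some out.

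Fate calls in cumulus cells and biopsies and calls between matched samples were 0 in all alternatives, apart from 1 member higher in biopsies with DESeq2. The sign of C5H12orf57 in biopsies, 0.03, turned to -0.27 without D24, -0.03 without D27, -0.11 without B14, -0.11 without D10 and -0.040 with the letter covariate, within -0.27 to 0.27 without 1 library at a time. With the pair number as a replicate block, 0 members were called between matched biopsies and oocytes, and with the follicle label 22 were higher and 20 lower in biopsies than in granulosa cells; apart from the 4 of the interaction above, against 7, the block moved no count by over 1.5 times. For the cumulus comparisons no paired analysis was made, because the numbers of cumulus columns and titles are not stated to tie these libraries to others. A gene at 0 counts in a library was not detectable at that depth, which does not show that it is absent.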

Other observations

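Some members that the comparisons above do not name had distinct levels, and they were picked after their values were seen. C15H11orf88, the counterpart of HOATZ of motile cilia, had 12, 1.89, 2.51 and 16.2 CPM in blastocyst granulosa libraries B20, B21, D24 and D27, 0 to 1.43 CPM in the cleavage group and 0 counts in all 8 cumulus libraries. C8H9orf57 had 24.8, 3.81, 4.2 and 13.3 CPM in the same blastocyst libraries and 0 to 3.16 CPM in the cleavage group. By fate in granulosa cells, C15H11orf88 had an edgeR adjusted p of 0.0581 and C8H9orf57 of 0.0764, and with library totals of 0.0318 and 0.0390. Over all alternatives these ranged from 0.00118 to 0.420 and from 0.00125 to 0.426. C25H16orf58, the counterpart of RUSF1, had 7.13 to 10.2 CPM in cumulus cells and 0 counts in all 4 matched biopsies. C10H14orf1, the counterpart of the sterol synthesis scaffold ERG28, had 6.09 to 27.9 CPM in fate biopsies, against 2.12 to 12.8 in granulosa cells. C11H2orf74 and C18H19orf73 never reached 5 counts in any library.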
